A study of Homo sapiens with 10 samples.

Results

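This section describes one array, hybridized with RNA from HEK293T cells treated with bacterial extracellular vesicles (bEVs) of Lactococcus lactis (Lc. lactis), set against both control arrays of the same cells. HEK293T is an established line from human embryonic kidney, and it expresses the SV40 large T antigen. The array was chosen by its title, and it is 1 of 10 arrays in the series. Of the others, 2 are controls and 7 carry RNA of cells treated with bEVs of L. rhamnosus, L. paracasei, L. plantarum, L. fermentum, L. acidophilus, L. salivarius or S. thermophilus.

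Cells were treated for 6 h with bEVs at the maximum dose that they tolerated for each strain, and 3 RNA samples were pooled into 1 composite. The bEVs had been collected from bacterial cultures by tangential flow filtration. The Lc. lactis array therefore averages 3 samples and holds no measure of their spread. The particle dose for Lc. lactis and the handling of the controls are not stated in those sources that were read here. The labels also carry a treatment entry for another agent, and the title of the Lc. lactis array numbers the line HEK297T while its cell line entry says HEK293T.

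With 1 array on the treated side, nothing below is tested. A gene is counted where its log2 signal differs by 1.5-fold or more (0.58 on the log2 scale), and the count against each control alone asks that both controls put the gene on the same side. The 2 controls are the only replicates, and it is not stated if each was a culture of its own. Control 1 was 1.5-fold or more higher than control 2 at 399 of 14884 genes (2.68%) and lower at 410 (2.75%). These counts take a single pair of arrays, so they compare most directly with counts against 1 control alone. All bEV comparisons of the series share these 2 controls.

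Of 18 markers of HEK293 cells, 12 were measured and 8 were at or above the median signal of all genes (4.63), namely VIM, KRT18, GATA3, NCAM1 and the kidney progenitor genes LHX1, EYA1, SIX2 and WT1. KRT8, PAX2, PROM1 and EPCAM were below it. KRT8 had a log2 signal of 3.73 on the Lc. lactis array, against 4.53 in control 1 and 4.21 in control 2. KRT8, LHX1 and EYA1 were lowest on the Lc. lactis array of all 10, while KRT18, WT1 and EPCAM ranked 2 from the top. The summed linear signal of the 12 was 1011 on the Lc. lactis array, against 1063 in control 1, 1053 in control 2 and 963 to 1078 on the other bEV arrays. Of the markers measured, 0 of 4 for fibroblasts or stellate cells, 0 of 4 for hepatocytes, 0 of 6 for keratinocytes and 1 of 5 for immune cells (CD68) reached the median signal. The keratinocyte markers summed to 58.4 on the Lc. lactis array, against 46.9 in control 1 and 45.5 in control 2, with KRT14 at a log2 signal of 4.31, against 3.31 and 3.50, and KRT5 at 2.80, against 1.96 and 2.09. Of the other 4, KRT1 lay above both controls (3.08, against 2.99 and 2.83), KRT10 (3.25, against 3.51 and 3.37) and DSG3 (2.68, against 2.70 and 2.73) lay below both, and FLG (2.84, against 2.87 and 2.54) lay between them. The median log2 signal over all probe sets was 3.31 on the Lc. lactis array and between 3.29 and 3.33 on the other 9.

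Bacterial vesicles are membrane particles shed by bacteria. Those of gram-positive species such as lactic acid bacteria bud from the cytoplasmic membrane and carry lipids, proteins, nucleic acids and cell wall components such as lipoteichoic acid. Host cells can take them up by endocytosis. Several of the lists below follow sensors of the nutrient state: ATF4 is the transcription factor of the integrated stress response, which raises genes of amino acid synthesis, amino acid transport and tRNA charging. SREBP2 switches on cholesterol synthesis when sterols in the endoplasmic reticulum are low, MondoA reads glucose phosphates and drives TXNIP, and the aryl hydrocarbon receptor (AHR) is activated by planar aromatic ligands, some of them made by bacteria.

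Sequences of a pair of genes that stood at opposite ends of the comparison are shown first, because their regulators are known. TIPARP, a mono-ADP-ribosyltransferase induced by AHR, was among the highest genes. TXNIP, which binds and inhibits thioredoxin, had the largest difference on the lower side for genes that reached the median signal. The runs are the 250 bases before the first annotated start site in RefSeq (GRCh38.p14), read 5′ to 3′ on the gene's strand, at chr3:156674340-156674589 on the plus strand for TIPARP and at chr1:145996580-145996829 on the minus strand for TXNIP. Capitals mark GCGTG (the AHR core) and its complement, TCACNCCAC (a sterol element core) with N in lower case, and a pair of CACGAG runs 5 bases apart (a carbohydrate response element).
TIPARP: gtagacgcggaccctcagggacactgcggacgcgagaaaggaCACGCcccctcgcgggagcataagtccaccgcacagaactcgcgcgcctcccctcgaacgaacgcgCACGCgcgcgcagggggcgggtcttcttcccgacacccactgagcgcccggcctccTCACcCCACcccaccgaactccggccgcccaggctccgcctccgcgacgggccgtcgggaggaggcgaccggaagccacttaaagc
TXNIP: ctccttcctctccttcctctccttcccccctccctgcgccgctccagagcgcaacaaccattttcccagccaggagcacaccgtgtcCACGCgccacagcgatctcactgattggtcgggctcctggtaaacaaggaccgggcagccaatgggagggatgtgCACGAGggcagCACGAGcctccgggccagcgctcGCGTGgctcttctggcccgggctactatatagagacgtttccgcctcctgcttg

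The TIPARP window held GCGTG 208 and 142 bases before the start site, and the TXNIP window held it 163 and 54 bases before. It is a common run: 32.2% of 35116 promoter windows of this length held it on either strand. The CACGAG pair of TXNIP began 88 bases before the start site, and 2 of all windows (0.0057%) held such a pair. The searched pattern has the same letters as the TXNIP pair, so a match there was given. Its share is that of this exact spelling and not of carbohydrate response elements in general. TCACNCCAC was in 0.883% of windows. The core TGATGNAA, read by ATF4 with a C/EBP partner, was in 3.14% of all windows, in 7 of 49 windows of the ATF4 list described below and in 0 of 25 windows of bright genes (median signal or more) higher than each control. A match is a run of letters in this window and no evidence of binding in these cells.

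Against the mean of both controls, 237 of 14884 genes (1.59%) were 1.5-fold or more higher on the Lc. lactis array and 282 (1.89%) were lower. Against each control alone, in the same direction, 99 (0.665%) were higher and 128 (0.86%) lower. Under either rule both shares lie below the shares by which the 2 controls differed from each other. However, a difference to a mean of 2 arrays carries less noise than a difference between 2 arrays. A count that asks for both controls cannot exceed the count against either of them, so it is smaller by construction. The closest like-for-like values are those against single arrays: 433 genes were higher and 489 lower than in control 1, and 387 were higher and 413 lower than in control 2. The step from the Lc. lactis array to either control was thus about as large as the step between the controls when all genes were counted.

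Much of this came from dim genes. With genes restricted to those that reached the median signal, 58 of 7442 (0.779%) were higher and 104 (1.4%) lower than the mean of both controls, and 23 (0.309%) were higher and 50 (0.672%) lower than each control. In these brighter genes the lower side was the larger one under both rules. The excess held against control 1 alone, where 159 were higher and 192 lower. It did not hold against control 2 alone, where 124 were higher and 98 lower. Between the controls, 102 of these genes were higher and 130 lower in control 1. The leading genes below were taken from these 23 and 50, ranked by the smaller of their 2 differences.

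**Figure D1:**
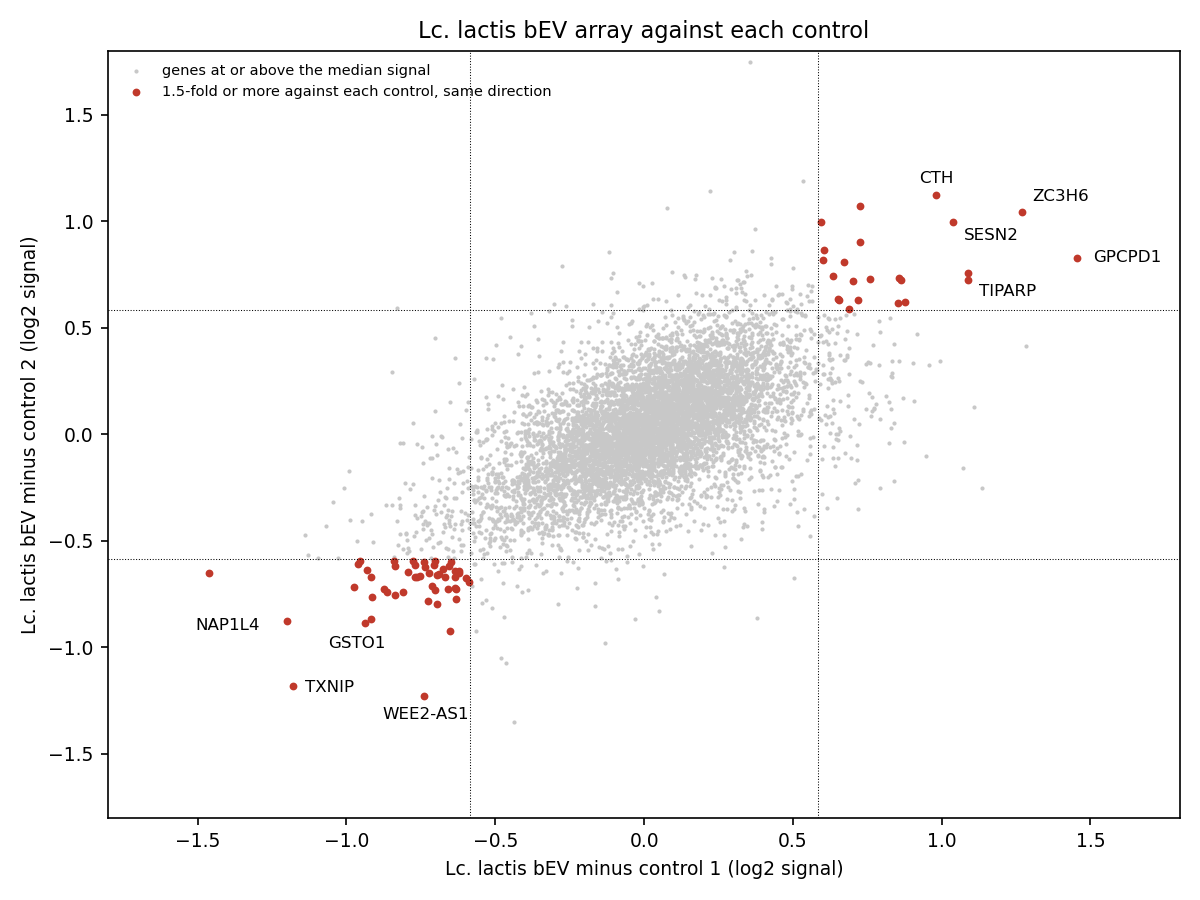
Difference of the Lc. lactis bEV array from control 1 (x axis) and from control 2 (y axis), both in log2 signal, for 7442 genes, those that reached the median signal. Dotted lines mark 1.5-fold, and red points are the 23 genes higher and 50 genes lower than each control. Both axes subtract from the same Lc. lactis array, so part of the slope of the cloud comes from that array alone.

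SESN2 (probe set 16661544) encodes Sestrin2, which binds leucine and holds back the growth kinase complex mTORC1. It had a log2 signal of 7.97 on the Lc. lactis array, against 6.93 in control 1 and 6.98 in control 2. CTH (16666055), cystathionine gamma-lyase, makes cysteine from cystathionine and had 6.61, against 5.63 and 5.49. Both controls were far below the Lc. lactis array for each gene and close to each other. Among the other bEV arrays SESN2 ran from 7.15 to 8.46 and CTH from 5.89 to 7.20, so the Lc. lactis array lay inside the range of the bEV arrays and the controls lay below it.

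GPCPD1 (16917004), which cleaves glycerophosphocholine to free choline, had 7.02 on the Lc. lactis array, against 5.56 in control 1 and 6.19 in control 2, and here the controls themselves stood apart by more than 1.5-fold. TIPARP (16947287) had 8.71, against 7.62 and 7.95, with the other bEV arrays between 8.07 and 8.83. INSIG1 (17053892), the endoplasmic reticulum protein that retains the SREBP machinery and is itself an SREBP target, had 8.25, against 7.39 and 7.53, with the other bEV arrays between 7.84 and 8.36. For each of these the Lc. lactis array again lay within the range of the bEV arrays and above both controls. On GPCPD1, however, the other bEV arrays ran from 6.06 to 7.52, so control 2 lay inside their range.

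The gene that ranked first was ZC3H6 (16884441), a zinc finger gene of the CCCH class, with 7.04 on the Lc. lactis array, against 5.78 in control 1 and 6.00 in control 2. BLTP3A, a bridge-like lipid transfer protein, had 7.57, against 6.85 and 6.67. ENTPD5, a nucleoside diphosphatase of the endoplasmic reticulum, had 6.63, against 5.87 and 5.90, and TTBK2, a kinase needed for the primary cilium, had 7.03, against 6.38 and 6.40. These differed little between the controls. ABHD4, a lipase of N-acyl phospholipids, had 5.51, against 4.65 and 4.77, and FBXO48, an F-box gene, had 7.17, against 6.08 and 6.44. The zinc finger genes ZNF30 and ZNF549 and the miRNA gene MIR4682 completed the group with differences of 0.90, 0.74 and 0.71 from the mean of both controls.

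The lowest genes were led by TXNIP (16669796), with 4.97 on the Lc. lactis array and 6.15 in each control, a difference of -1.18 at which the controls were alike. The other bEV arrays ran from 4.73 to 5.83 for TXNIP. A second, much dimmer probe set of TXNIP differed by -0.94 from the mean of both controls. GSTO1, a glutathione transferase of the omega class, had 4.82, against 5.76 in control 1 and 5.71 in control 2, and NOSIP, which binds nitric oxide synthases, had 6.84, against 7.76 and 7.71. On both genes the Lc. lactis array was the lowest of all 10, with the next array at 5.11 for GSTO1.

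ROMO1, an inner membrane protein that modulates reactive oxygen species, had 6.12, against 6.96 and 6.88. MTX1, metaxin 1 of the outer membrane import machinery, had 5.43, against 6.14 and 6.16, and was lower than on every other array, where the lowest value was 5.86. C1orf53 had 4.56, against 5.47 and 5.32. TMSB10, thymosin beta 10, which binds actin monomers, had 9.09, against 9.81 and 9.87. EHD2, an ATPase of caveolae, had 4.95, against 5.66 and 5.66, and SYT2, synaptotagmin 2, a calcium sensor of vesicle fusion, had 4.97, against 5.78 and 5.71.

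Some of the 14 lowest carry a reservation that was measured. NAP1L4, a histone chaperone, differed by -1.04 by its brighter probe set, while a second probe set of nearly the same brightness differed by 0.23. VPS51, a subunit of a tethering complex of the Golgi, differed by -0.80 by one probe set and by 0.03 by the other. WEE2-AS1, an antisense gene, differed by -0.98 by one and by 0.33 by a dimmer one. SNAR-G2 and SNAR-H belong to a family of near-identical small RNAs that bind the protein NF90, and their signals can share RNA: SNAR-G2 had 8.68, against 9.55 and 9.40, and SNAR-H had 9.31, against 10.28 and 10.02. All 8 SNAR genes measured were below both controls, with a median difference of -0.53 from the mean of both, -0.78 from control 1 and -0.36 from control 2.

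**Figure D2:**
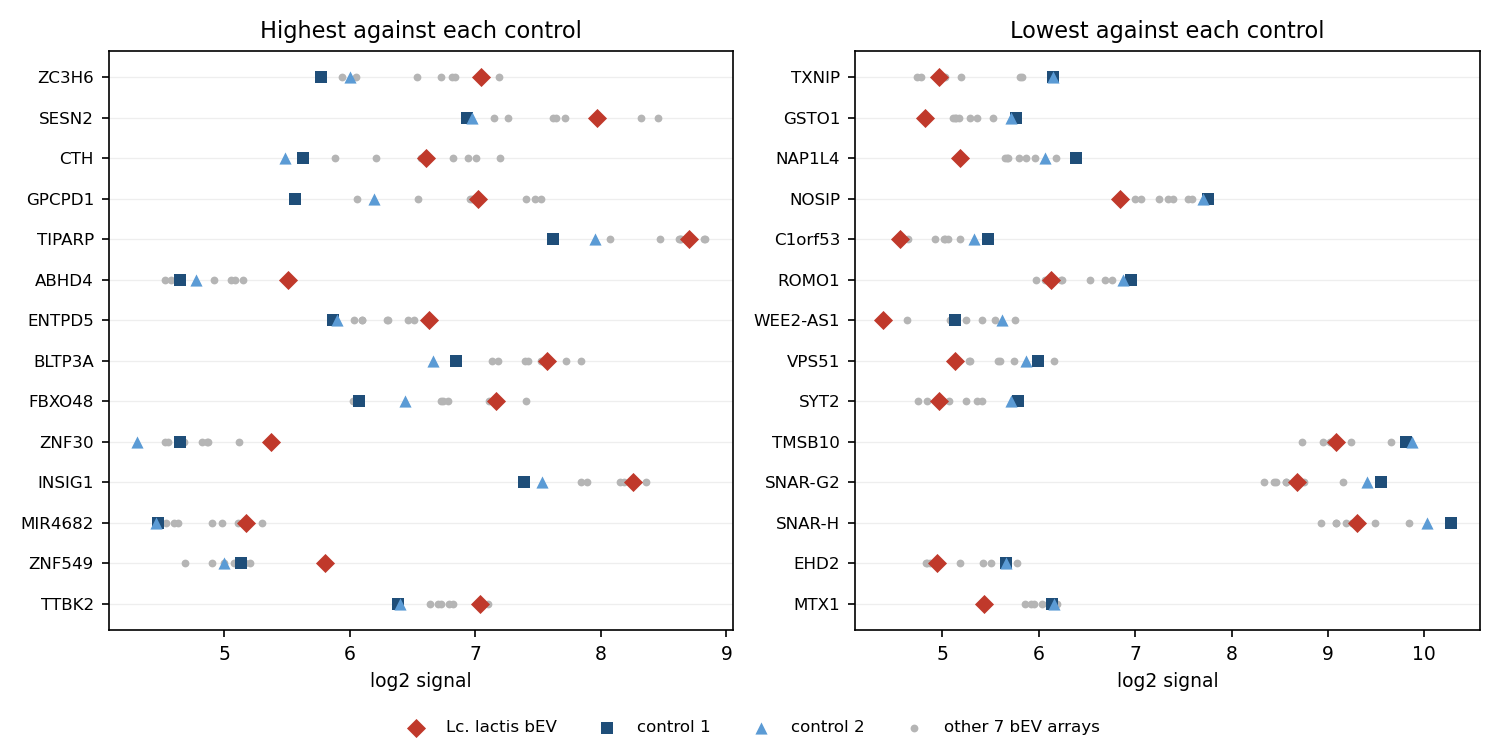
Log2 signal (x axis) of the 14 highest genes (left) and the 14 lowest genes (right) on each of the 10 arrays, 1 gene a row. Red diamonds are the Lc. lactis bEV array, blue squares and triangles are control 1 and control 2, and grey points are the other 7 bEV arrays. ZNF549, ZNF30, ABHD4 and ENTPD5 were highest on the Lc. lactis array of all 10, but for ABHD4 the L. paracasei array lay close, at 5.49 against 5.51. SESN2, CTH and TIPARP lay among the other bEV arrays.

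Gene groups were read by the count of members past 1.5-fold and by their median difference, beside the median of all genes, which was 0.01 relative to the mean of both controls, 0.01 relative to control 1 and 0.02 relative to control 2. On this scale 37.0% of all genes lay above both controls and 32.6% below both. Of the lists with 10 or more measured genes, the ATF4 targets stood furthest from the median of all genes on the higher side and oxidative phosphorylation on the lower side.

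Of 63 genes of the ATF4 and amino acid stress list, 40 were measured. Of these, 4 were higher than the mean of both controls by 1.5-fold and 1 was lower, and 3 were higher than each control. The median difference was 0.24 (0.28 against control 1 and 0.23 against control 2), and 31 members lay above both controls while 3 lay below both. The median between the controls themselves was -0.05. Most members thus lay above both controls by less than 1.5-fold, and on the other bEV arrays the list median ran between 0.04 and 0.43.

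By role, the 8 secreted factors and growth restraint genes had a median difference of 0.53, the 13 tRNA charging enzymes, all above both controls, of 0.31, the 9 enzymes of amino acid synthesis of 0.18 and the 10 transcription factors and kinases of 0.10. VLDLR, a lipoprotein receptor, had 4.85 on the Lc. lactis array, against 4.22 in control 1 and 3.91 in control 2. PSAT1, which makes phosphoserine, was the brightest of the leading members, with 10.84, against 10.21 and 10.35. GDF15, a stress cytokine, was on the other side with 3.80, against 4.33 and 4.53. The list's name-giving gene ATF4 had 8.94, against 8.57 and 8.77, so both controls lay below it by less than 1.5-fold.

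Neighbouring nutrient lists had smaller medians. In the mTORC1 list, 1 of 39 measured members (SESN2) was higher and 1 (LAMTOR5, a lysosomal anchor of the complex, at 4.89 against 5.68 and 5.44) was lower than the mean of both controls, with a median of 0.09. RRAGC, a Rag GTPase, had 6.44, against 5.84 and 6.01. In glycine, serine and threonine metabolism the median over 29 genes was -0.00328, with CTH high and GCSH, the hydrogen carrier of the glycine cleavage system, low at 3.07, against 4.12 and 4.10. GCSH is dim here. Of the glucose-responsive list, TXNIP was the single member of 10 past 1.5-fold and the median was 0.11, so its companions did not share its position. Of 6 measured genes of the AHR list, TIPARP was higher and ASB2 (3.17, against 3.76 and 4.07) lower, and AHR itself had 7.99, against 7.75 and 7.84.

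The cholesterol list had the next highest median, close to those of the circadian clock list (0.16) and the p53 targets (0.14). Against control 2 alone the clock list was higher than the cholesterol list (0.20 and 0.18). Of 34, 26 were measured, 1 (INSIG1) was 1.5-fold higher and 0 were lower, and the median difference was 0.19 (0.20 against control 1 and 0.18 against control 2), with 16 members above both controls and 3 below both. MSMO1, a sterol demethylase, had 9.04, against 8.45 in control 1 and 8.49 in control 2, and MVD, which makes isopentenyl pyrophosphate, had 6.84, against 6.33 in each. On MSMO1 and MVD the Lc. lactis array was the highest of all 10, with L. fermentum next at 8.86 and 6.81. Set directly against the other coccus of the series, S. thermophilus, the Lc. lactis array had a median difference of 0.22 over this list, and of 0.05 against L. fermentum. Between Lc. lactis and these arrays no control enters. The choline list, with GPCPD1 as the 1 member of 27 past 1.5-fold, had a median of -0.0035.

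Of 79 genes of oxidative phosphorylation, 17 were measured, namely subunits of complex III and of cytochrome c oxidase, cytochrome c1 and ATP5IF1. Of these 0 were higher and 5 were lower than the mean of both controls by 1.5-fold, and 3 were lower than each control. The median was -0.38 (-0.50 against control 1 and -0.38 against control 2), and 13 members lay below both controls. On the other bEV arrays the list median ran between -0.45 and 0.03. COX7A2 had 5.69 on the Lc. lactis array, against 6.49 in control 1 and 6.34 in control 2. COX5B had 5.99, against 6.62 and 6.77, and COX6B1 had 6.72, against 7.26 and 7.51. ATP5IF1, the inhibitor of ATP synthase, had 5.63, against 6.40 and 6.30. All 4 lay below both controls, and COX7A2 and COX5B were lowest on the Lc. lactis array of all 10. The median of the list against the other arrays was -0.29 for L. fermentum and 0.02 for S. thermophilus, so the Lc. lactis array stood level with one and below the other.

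Ribosomal protein genes were lower by a small step that most members shared. Among 73 mitochondrial ribosomal proteins, 0 were higher and 6 were lower by 1.5-fold than the mean of both controls, 1 was lower than each control, and 62 lay below both controls (median -0.26). On the other bEV arrays this list median ran between -0.27 and -0.05. MRPL36 had 5.79, against 6.60 and 6.33, and MRPL51 had 5.74, against 6.54 and 6.28. Among 53 cytosolic ribosomal proteins, 1 was higher, 1 was lower and 39 lay below both controls (median -0.24). The median of the cytosolic list on the other bEV arrays ran between -0.15 and -0.01, so the Lc. lactis array lay below that range. Many of these genes have processed pseudogenes that share sequence with their probes. In bulk RNA, fewer cells that express a gene and less of its RNA per cell cannot be told apart.

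**Figure D3:**
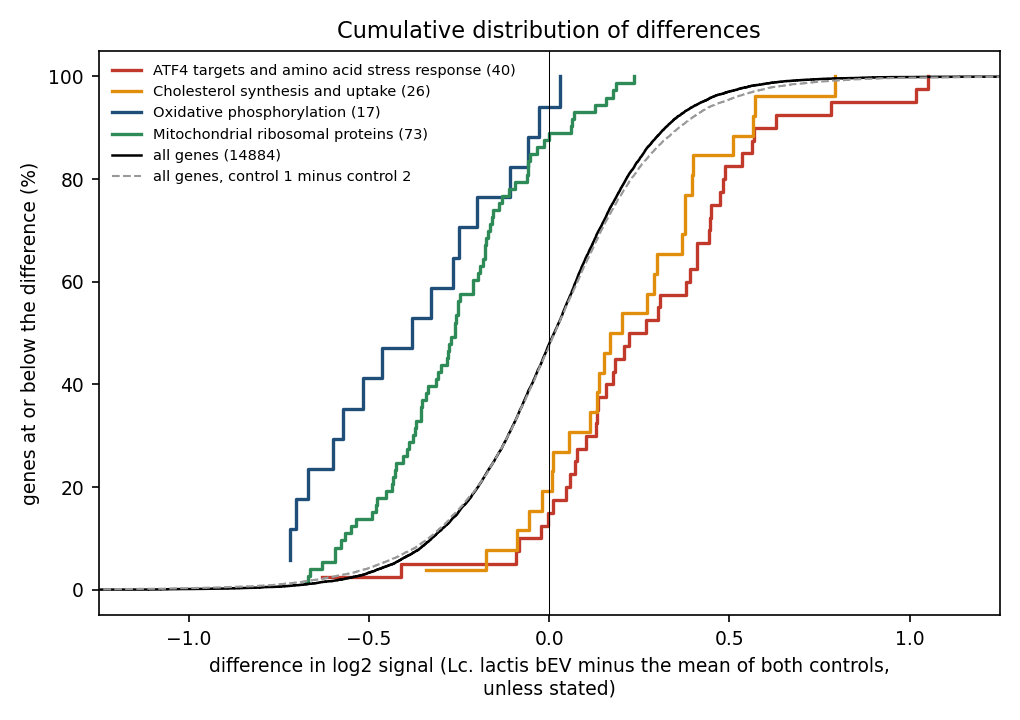
Cumulative share of genes (y axis, percent) at or below a given difference in log2 signal (x axis) for 4 gene lists and for all 14884 genes, Lc. lactis bEV minus the mean of both controls. The dashed grey line is control 1 minus control 2 over all genes. The ATF4 and cholesterol lists lie to the right of all genes and the oxidative phosphorylation and mitochondrial ribosome lists to the left over most of their range, and a few ATF4 members lie at the low end of the plot.

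The lower lists are lists of short genes, and gene span moved with the difference over the whole array. Protein-coding genes that reached the median signal were divided into 5 bins of near-equal size by their span in RefSeq. The median difference from the mean of both controls was -0.09, 0.01, 0.05, 0.10 and 0.11 from the shortest to the longest bin, where the controls differed from each other by 0.02, 0.00, 0.02, 0.04 and 0.04. Genes lower than each control had a median span of 7.35 kb and those higher than each control of 26.4 kb, beside 30.8 kb for all 6936. Over protein-coding members that reached the median signal, the ATF4 list had a median of 0.30 and the cholesterol list of 0.20. The oxidative phosphorylation list had -0.42 and the mitochondrial ribosome list -0.27. With the median of its span bin taken from each of these members, the medians were 0.26, 0.16, -0.38 and -0.23, in the same order. The part of gene span or RNA quality in these differences was not tested.

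**Figure D4:**
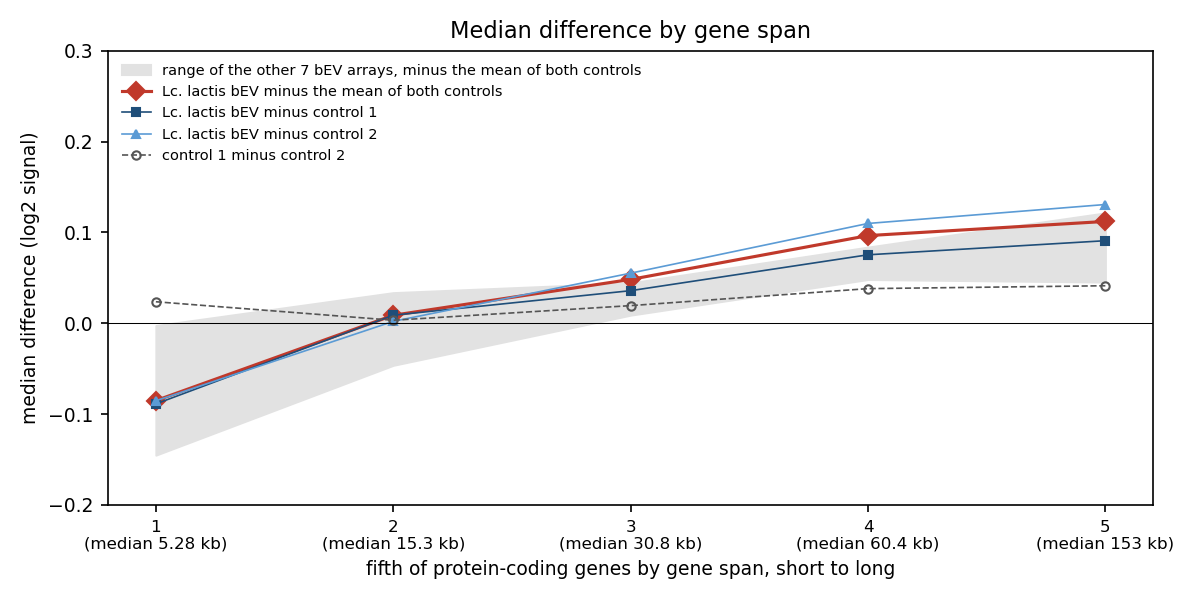
Median difference in log2 signal (y axis) of protein-coding genes at or above the median signal, in 5 bins by gene span (x axis, short to long). Red diamonds are Lc. lactis bEV minus the mean of both controls, the lines with squares and triangles are the same against control 1 and control 2 alone, the dashed line is control 1 minus control 2, and the grey band spans the other 7 bEV arrays. The Lc. lactis medians run from -0.09 to 0.11, inside the band in the shortest, second and longest bins and slightly above it in the others.

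Few members of the bacterial sensing, NF-kappa B and interferon lists passed 1.5-fold, and most members were dim. The median signal was reached by 12 of 38 sensing genes, 9 of 23 NF-kappa B and cytokine targets and 8 of 25 interferon-induced genes. Of 46 receptors and adaptors of bacterial sensing, 38 were measured, 0 were higher and 1 was lower than the mean of both controls: TICAM1, the adaptor of TLR3 and TLR4, at 4.83 on the Lc. lactis array, against 5.45 in control 1 and 5.47 in control 2. The receptor TLR7 was listed at 1.83, against 2.12 and 2.56, a dim signal. The list median was 0.03, and 0.11 over the 12 members that reached the median signal. Of 23 NF-kappa B and cytokine targets, IL11 alone was higher, with 5.06, against 4.52 and 4.20, and was highest on the Lc. lactis array of all 10, with a median of -0.08 over the list. Of 25 interferon-induced genes, IFIT1 was lower at 2.66, against 3.53 and 3.66, and the median was 0.05. Among immediate early genes, FOS had 3.79, against 4.74 and 4.12, where the controls differed by more than 1.5-fold, and the median over 31 genes was -0.02.

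No member of the heat shock (17 genes, median 0.08), HIF-1 (20, 0.02), cell death (21, 0.04), PI3K and Akt (30, 0.10), cell cycle (48, -0.00475) or splicing factor (43, -0.02) lists was past 1.5-fold against the mean of both controls. Among 14 clock genes DBP, an output factor of the clock, was low at 5.81, against 6.76 and 6.40, while PER3 had 4.65, against 4.21 and 4.18, and the median was 0.16. Of 12 metallothionein genes and regulators 3 were lower, MT2A with 5.33, against 5.80 and 6.18, MT1E with 3.33, against 4.24 and 3.74, and MT1F with 4.37, against 4.95 and 5.08, and none was 1.5-fold lower than each control. The metallothionein median was -0.22 (-0.27 against control 1 and -0.20 against control 2), with 8 members below both controls, and the median between the controls was -0.10. SDF2L1 of the endoplasmic reticulum, in the unfolded protein list, differed by -0.67 from the mean of both controls and was 1.5-fold lower than each.

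Collagen production was followed in other cells in the study, so that axis was read gene by gene here. Of 38 TGF-beta and BMP genes 0 were past 1.5-fold against the mean of both controls, with a median of 0.09. The 12 ligands and receptors had a median of -0.11 and the 26 transducers, inhibitors and targets of 0.14. SMAD3 had 3.19 on the Lc. lactis array, against 3.35 in control 1 and 3.29 in control 2, and MMP1 had 2.21, against 2.01 and 2.31, both at dim signals. SERPINH1 was not analysed here. Of 32 genes of collagen synthesis and matrix turnover, 11 were measured, 1 was higher and 1 lower than the mean of both controls, 3 lay above and 5 below both controls, and the median was -0.06. LOX, which crosslinks collagen, was higher at 5.73, against 4.88 and 5.11. On LOX the Lc. lactis array was the highest of all 10, with L. paracasei next at 5.66 and L. fermentum at 5.63. The protease inhibitor TIMP4 was lower than the mean of both controls by 1.5-fold (2.31, against 2.95 and 2.84). TIMP1, with 5.42, against 6.17 and 5.81, did not reach 1.5-fold from the mean, and its controls stood 0.37 apart. Among 56 Wnt genes, DKK2 alone passed 1.5-fold and was dim, at 2.74, against 2.10 and 2.14.

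**Figure D5:**
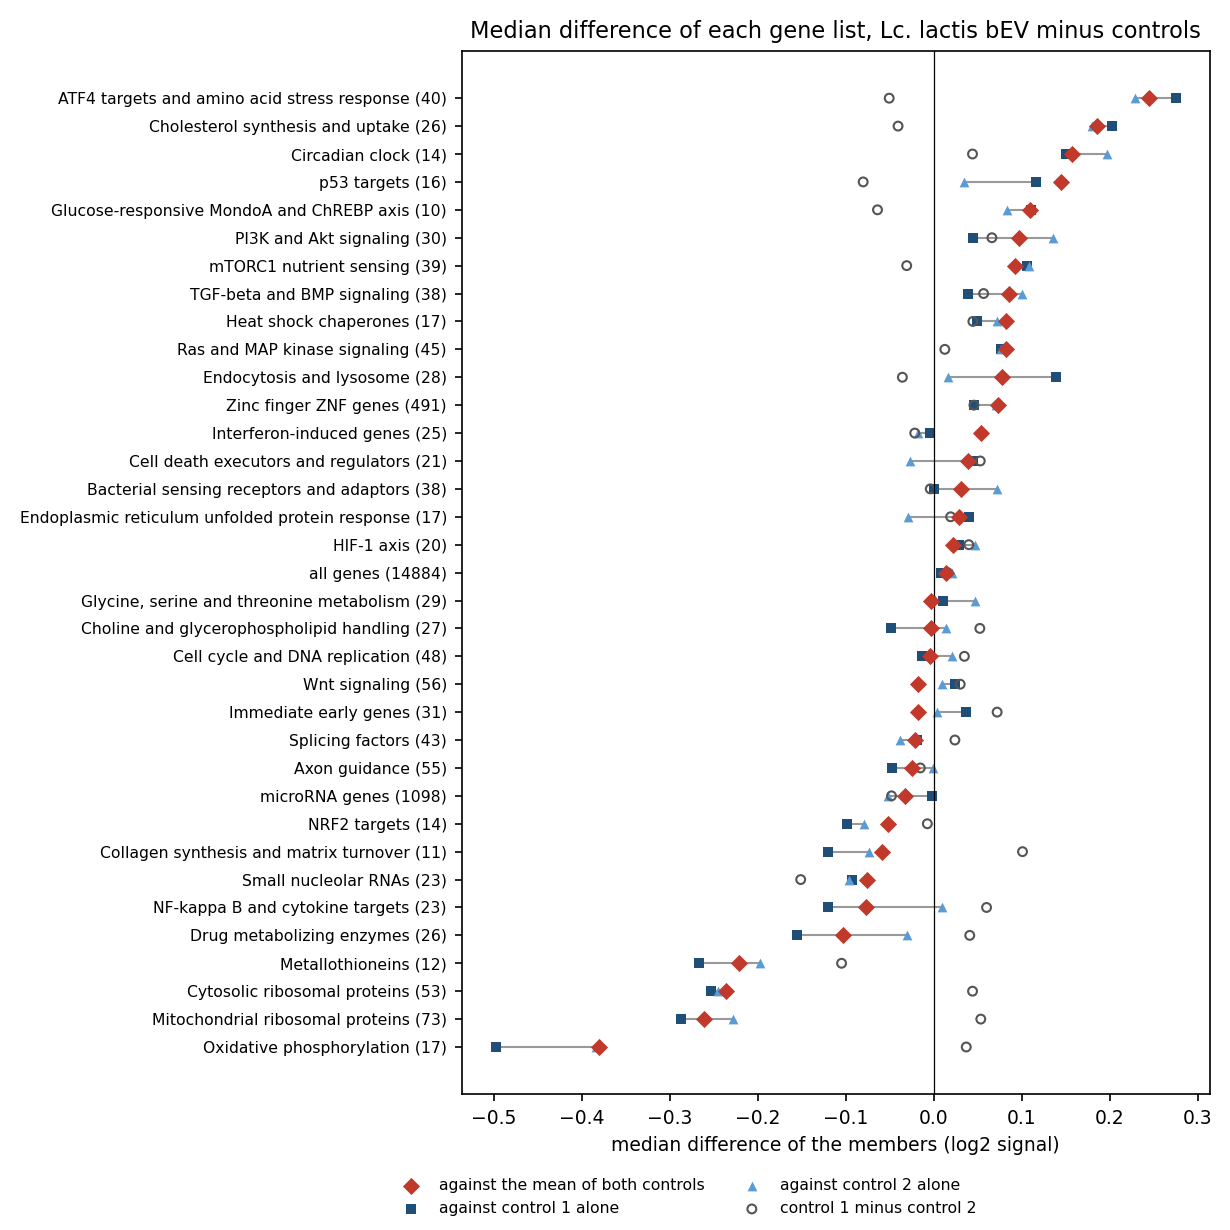
Median difference in log2 signal (x axis) of every list with 10 or more measured genes (rows, number measured in brackets). Red diamonds are Lc. lactis bEV minus the mean of both controls, squares and triangles are the same against control 1 and control 2 alone, and open circles are control 1 minus control 2. The ATF4 list reached 0.24 and oxidative phosphorylation -0.38, while between the controls the list furthest from 0 was that of the small nucleolar RNAs, at -0.15.

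Genes of miRNAs took up 25 of the 99 genes higher and 23 of the 128 genes lower than each control, over 1098 measured, beside shares of 0.665% and 0.86% over all genes. Relative to the mean of both controls 52 were higher and 67 lower. The controls differed from each other at more of these genes, with 65 higher and 106 lower in control 1. Most were dim: 158 of the 1098 were at or above the median signal of all genes. A probe set here reads RNA from the miRNA gene's locus, and the mature miRNA was not measured apart from its precursor. Mature sequences were available for 22 of the 25 higher and 21 of the 23 lower genes, from RefSeq entries that were not taken from every chromosome. They are printed for a few genes far from both controls, for a bright one (MIR92B) and for those of the chromosome 19 cluster that share a seed, with bases 2 to 8 (the seed, which pairs with target transcripts) in capitals. In GRCh38.p14 they lie, all on the plus strand and in the order printed, at chr3:20137574-20137595, chr1:212077622-212077643, chr19:53751226-53751247, chr19:53700030-53700051, chr19:53729853-53729874, chr19:53690933-53690954, chr14:26908697-26908715, chr14:101032033-101032054 and chr1:155195237-155195258.
miR-3135a: uGCCUAGGcugagacugcagug
miR-3122: gUUGGGACaagaggacggucuu
miR-522-5p: cUCUAGAGggaagcgcuuucug
miR-518f-5p: cUCUAGAGggaagcacuuucuc
miR-518e-5p: cUCUAGAGggaagcgcuuucug
miR-520a-3p: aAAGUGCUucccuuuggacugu
miR-4307: aAUGUUUUuuccuguuucc
miR-543: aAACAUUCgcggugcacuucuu
miR-92b-3p: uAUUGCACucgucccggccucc

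MIR3135A on chromosome 3 had the largest difference of the genes named here, with 5.61 on the Lc. lactis array, against 2.26 in control 1 and 3.46 in control 2. The other bEV arrays ran from 3.96 to 4.61, so all 8 bEV arrays were above both controls and the Lc. lactis array above the rest, while the controls stood apart by more than 2-fold. MIR3122 had 3.85, against 2.36 and 2.25. MIR4307 had 1.47, against 2.78 and 2.38, and MIR543 had 2.13, against 3.05 and 3.18. MIR92B, among the few bright ones, had 5.22, against 5.92 and 5.88, and MIR4682 had 5.18, against 4.48 and 4.46.

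The seed UCUAGAG was the 1 seed shared by several of these genes, all in the primate cluster on chromosome 19, and they did not stand on the same side. MIR522 had 3.36 on the Lc. lactis array, against 1.91 in control 1 and 1.68 in control 2, and MIR518F had 2.09, against 1.32 and 1.45. MIR518E had 1.35, against 1.97 and 2.20. The printed 5p sequences of MIR522 and MIR518E are identical letter for letter, and their genes lay on opposite sides of both controls. MIR520A, with 2.84, against 1.78 and 1.81, belongs to the same cluster with another seed. These genes were all dim. MIR518E on the Lc. lactis array and MIR518F in both controls lay below the 10th percentile of all values. So did MIR522 in control 2 and MIR520A in control 1. The contrast between MIR522 and MIR518E thus rests on signals near the bottom of the range.

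Few genes set the Lc. lactis array apart from all 9 others. It was 1.5-fold or more above every other array at 6 genes (0.0403%) and below every other array at 3 (0.0202%). The 6 were ZNF549, DISP2, STEAP1, LINC01095, MIR3135A and MIR4694, and the 3 were MIR4307, ZSCAN16 and TP53TG3HP. ZNF549, at 5.81, against 5.13 in control 1, 5.00 in control 2 and 4.69 to 5.21 on the other bEV arrays, was the single one that reached the median signal. For DISP2 and LINC01095, the mean of their probe sets gave a smaller difference from both controls, of 0.28 and 0.55, than the brightest probe set, of 0.87 and 1.12. ZSCAN16, a zinc finger gene, had 3.09, against 4.28 and 4.09, with the other bEV arrays between 3.99 and 4.29. By the same count control 1 had 18 genes above and 21 below every other array, control 2 had 6 and 2, and the other bEV arrays had 4 to 15 and 1 to 13.

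The Lc. lactis array was nearest to those of L. fermentum and S. thermophilus. It differed by 1.5-fold or more in either direction from L. fermentum at 626 genes and from S. thermophilus at 624, against 703 to 831 for the other bEV arrays, 922 for control 1 and 800 for control 2. For genes that reached the median signal the counts were 103 for L. fermentum, 127 for S. thermophilus, 153 to 175 for the other bEV arrays, 351 for control 1 and 222 for control 2. The Lc. lactis array thus differed at more bright genes from each control than from any bEV array. Whether the controls were prepared alongside them is not stated.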

How the data were processed

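RNA of HEK293T cells was hybridized to Affymetrix Human Gene 2.0 ST arrays, 1 per group for 8 bEV strains and 2 for the controls. The deposited table holds log2 signals of 53617 probe sets on 10 arrays. The authors' processing notes name MAS5, and the study names GeneChip Command Console for scanning. Neither states how arrays were scaled to each other. Values were used as deposited. Gene symbols came from GEO's platform annotation, updated to RefSeq (GRCh38.p14) by Entrez ID, which matched for all 16098 probe sets used. The other 37519 probe sets had no single symbol there. A gene took its probe set of highest mean signal (14884 genes, 779 with several).

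The mean of both controls, and each control alone, was subtracted from the Lc. lactis array on the log2 scale. No p-value was computed, because the treated side holds 1 array. Genes were called at 1.5-fold. Genes named are the 14 highest and 14 lowest against each control at or above the median signal, up to 4 members of each list with the largest difference and those past 1.5-fold against each control, the 6 furthest above or below all other arrays, and SMAD3, SERPINH1 and MMP1. ATF4, KRT5, KRT8, KRT14 and the genes 1.5-fold apart from all others at any signal were named after their values were seen. Members, lists and rules were chosen with earlier results of these data known. The number of arrays limits the precision.

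The counting code was checked on simulated arrays with planted differences. Their noise was far below the spread between the controls, so this checks the arithmetic and not how the counts behave in these data. Alternatives were quantile normalization, median centring, averaging over probe sets per gene, all probe sets, a filter and a floor on dim values, 2-fold, and each control alone. Work was done in Python 3.11.15 with pandas 2.3.3, numpy 2.4.6 and matplotlib 3.10.9.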

Additional observations from a re-analysis of the deposited data

Results flagged for a closer look

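Probe sets without a unique gene symbol in the annotation used entered none of the gene comparisons above, and they carried differences of the same kind. Of 37519 such probe sets, 825 (2.20%) were 1.5-fold or more higher on the Lc. lactis array than each control and 815 (2.17%) were lower. They are dim, with a median log2 signal of 2.91, and 24.3% reached the median signal of the named genes. The controls differed from each other by 1.5-fold at 5166 of them (13.8%). That count takes a single pair of arrays, while the 825 and 815 ask for a difference to both controls. Against control 1 alone 2863 were higher and 2352 lower, and against control 2 alone 1936 were higher and 2717 lower. The identity of these probe sets was not analysed here.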

How the results depend on the processing

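The counts of genes against the mean of both controls (237 higher, 282 lower), against each control (99 higher, 128 lower) and against every other array (6 above, 3 below) stayed within 1.5 times under quantile normalization, median centring, a floor at the 10th percentile of all values and averaging over the probe sets of each gene. With 1 control left out, 387 to 433 genes were higher and 413 to 489 lower. At or above the median signal, 58 were higher and 104 lower than the mean, 23 and 50 than each control, and 1 above and 0 below every other array. At 2-fold the counts were 18 and 21, 8 and 10, and 1 and 0. Over all probe sets they were 2026 and 2070, 935 and 954, and 77 and 78. Fewer or more features and a higher fold account for these by construction. The difference of the miRNA gene MIR3160-1 was -0.90 and turned to 0.024 with the mean of its probe sets. Under quantile normalization and under median centring, 14 of the 14 highest and 14 of the 14 lowest genes stayed past 1.5-fold against each control; with the mean of probe sets 14 and 11 did, the 3 lost being NAP1L4, WEE2-AS1 and VPS51. Of 36 list medians, 27 kept their sign against control 2 alone and 31 against control 1 alone. No paired analysis was possible because the treated group has 1 array. Dim signals limit what can be read, since 76.8% of the genes higher and 60.9% of those lower than each control lay below the median signal.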
